A study of Mus musculus with 6 samples.

Results

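The Wnt ligands, their Frizzled (Fzd) receptors and the secreted inhibitors Sfrp and Dkk were examined in whole kidneys of mice with and without a targeted deletion of the transferrin receptor TfR1. Members were chosen by symbol alone, as Wnt, Fzd, Sfrp or Dkk followed by a number and, where present, the letter a or b. This gave 37 of the 24422 genes in the count tables: 19 Wnt ligands, 10 Fzd receptors, 4 Sfrp genes and 4 Dkk genes. A change was computed for the 29 members with at least 60 reads summed over the 6 libraries, and the other 8 are given by their counts.

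The 6 libraries came from C57BL/6 kidneys at postnatal day 13 on a diet with 220 ppm iron, 3 Control (genotype labelled wild type) and 3 TfR1KO;Six2Cre (genotype labelled Tfr1f/f;SixCre), called knockout from here on. In the knockout, loxP sites flank exons 3 and 4 of Tfrc, the gene for TfR1, and the recombinase comes from Six2-CreEGFP, which is active in the progenitors of the nephron and not in the ureteric bud, the stroma or vessels. The study describes tubule cells that escaped the deletion, so the kidneys mixed deleted and undeleted cells. For its RNA-seq the study describes the controls as wild type littermates. For another experiment at this age it uses WT for littermates with the floxed alleles. Whether the 3 Control libraries carried these alleles is therefore not clear. The labels number separate samples without naming litters, so the p-values measure the spread between these samples.

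Wnt proteins are lipid-modified signals that bind a Frizzled receptor together with a coreceptor, either Lrp5 or Lrp6 to stabilise beta-catenin, which then works with Tcf and Lef factors on target genes, or Ror and Ryk proteins to act on cell shape and polarity. Sfrp proteins carry a Frizzled-like domain and bind Wnts outside the cell, and Dkk proteins such as Dkk1 block the Lrp coreceptors. In the developing kidney, Wnt9b from the ureteric bud starts the conversion of mesenchyme into nephrons, Wnt4 completes it, Wnt11 is made at the bud tips, and Wnt7b is needed for the medulla.

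The targeted gene came first. Tfrc was at 5534, 6485 and 3667 normalized counts (reads divided by the size factor of the library) in the Control libraries and at 6976, 4045 and 5898 in the knockout libraries, both in the order of replicates 1, 2 and 3, as in all lists of values that follow. The groups overlapped, and the log2 fold change of 0.11 (SE 0.29) did not pass (DESeq2 adjusted p 0.853). Reads in exons 3 and 4 were not analysed apart from the rest of the gene, so the Tfrc count does not check the labels.

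The libraries held between 16591156 and 22898008 reads assigned to genes. Control replicate 1 stood apart by genes of the adrenal cortex (Cyp11a1, Cyp11b1, Cyp21a1, Star and Hsd3b1), which lay between 1657 and 9334 normalized counts there and between 255 and 1049 in knockout replicate 3, against at most 351 in the other 4 libraries. Results are therefore also given without these libraries where a call was lost. Control replicate 3 stood apart by the summed markers of cell types given below. Its proximal tubule sum was 54361 normalized counts, against 121987 and 120817 in Control replicates 1 and 2. Its thick ascending limb sum was 50189.8 against 91521 and 100053, and its stromal sum 150165 against 76938 and 73052. Genes of the kidney's own cell types were present in every library, and Six2, the gene whose promoter drives the recombinase, was near 0 in all 6 (3.64 to 7.96).

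Of the 29 members, 6 fell and 3 rose in the knockout at an adjusted p under 0.05 (31% of members, against 14.9% of all 16509 genes tested by DESeq2). By direction, 20.7% of members fell against 7.18% of all genes, and 10.3% rose against 7.74%. The members that rose include Wnt7a, which met the minimum of 60 reads through the knockout alone. Without it 2 of 28 rose (7.14%), a share near that of all genes, and 6 fell (21.4%). Among the genes that also had 60 or more reads, 15.8% passed, 7.63% lower and 8.2% higher. With a change of at least 2-fold, 6 members were lower and 2 higher (1 without Wnt7a), where the shares of all genes were 4.46% and 4.41%, or 8.87% in all. The ligands Wnt11, Wnt5a and Wnt5b, the inhibitors Sfrp1 and Sfrp4 and the receptor Fzd1 were lower. The receptor Fzd4 and the ligands Wnt9a and Wnt7a were higher. The median log2 fold change of the members was -0.35, against 0.0071 over all genes tested. edgeR's quasi-likelihood test, a second test on the same counts, called 5 members lower and 0 higher, and called 6.02% of its 15308 genes (2.8% lower and 3.22% higher). At an unadjusted p under 0.05, DESeq2 counted 9 members lower and 6 higher, Wnt7a among the latter, and edgeR 8 lower and 4 higher. The share of all genes at an unadjusted p was not counted, for the members or for the lists that follow. Fewer cells of a type and less RNA per cell cannot be told apart in these whole kidney libraries, here or below.

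**Figure D1:**
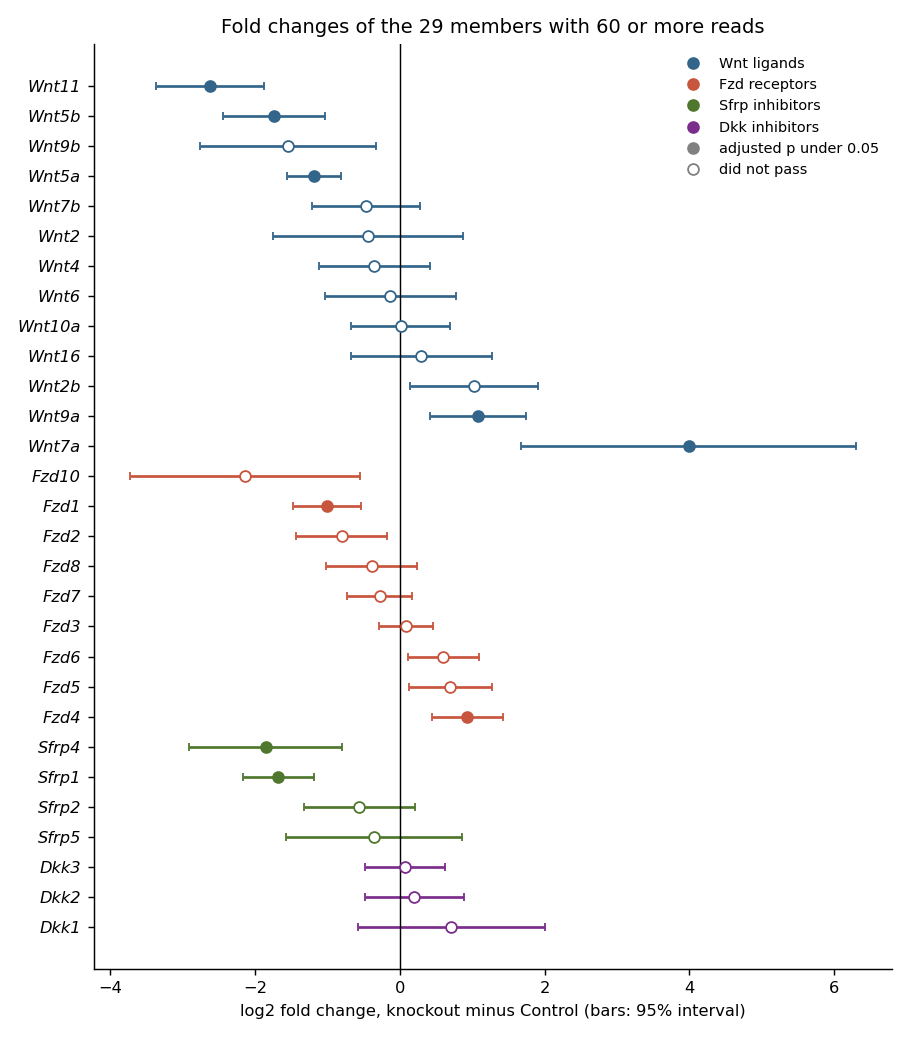
The log2 fold change (knockout minus Control, x axis) of each of the 29 members with 60 or more reads, ordered within its family, with bars for the 95% interval from DESeq2. Filled points passed an adjusted p of 0.05: 6 lie to the left of 0, led by Wnt11 at -2.62, and 3 to the right, of which Wnt7a at 3.99 has the widest bar.

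The sequences just upstream of 4 members that passed are printed for what lies at their start, 2 that fell (Wnt11, Fzd1) and 2 that rose (Fzd4, Wnt9a), chosen after their values were seen. They are the 250 bases before a RefSeq start site, matched letter for letter in the NCBIM37 (mm9) build, written 5′ to 3′ on the gene's strand. Capitals mark the core letters bound by Tcf and Lef factors, CTTTGA or CTTTGT on either strand. Wnt11 lies at chr7:105983372-105983621 (+ strand), Fzd1 at chr5:4758217-4758466 (- strand), Fzd4 at chr7:96552626-96552875 (+ strand) and Wnt9a at chr11:59120182-59120431 (+ strand).
Wnt11: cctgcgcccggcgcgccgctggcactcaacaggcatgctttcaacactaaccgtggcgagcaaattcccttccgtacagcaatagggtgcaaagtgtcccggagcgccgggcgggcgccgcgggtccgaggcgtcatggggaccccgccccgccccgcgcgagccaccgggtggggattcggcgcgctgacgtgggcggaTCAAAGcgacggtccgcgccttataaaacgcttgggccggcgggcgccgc
Fzd1: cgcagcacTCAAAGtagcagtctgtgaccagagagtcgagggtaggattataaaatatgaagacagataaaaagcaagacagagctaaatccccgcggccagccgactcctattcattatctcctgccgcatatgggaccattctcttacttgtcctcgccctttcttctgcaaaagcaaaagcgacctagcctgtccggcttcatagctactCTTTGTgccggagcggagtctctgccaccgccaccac
Fzd4: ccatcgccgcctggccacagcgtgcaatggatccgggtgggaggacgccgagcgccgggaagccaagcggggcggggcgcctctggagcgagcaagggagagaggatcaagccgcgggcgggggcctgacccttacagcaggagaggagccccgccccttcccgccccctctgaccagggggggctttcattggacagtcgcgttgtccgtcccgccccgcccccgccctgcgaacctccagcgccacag
Wnt9a: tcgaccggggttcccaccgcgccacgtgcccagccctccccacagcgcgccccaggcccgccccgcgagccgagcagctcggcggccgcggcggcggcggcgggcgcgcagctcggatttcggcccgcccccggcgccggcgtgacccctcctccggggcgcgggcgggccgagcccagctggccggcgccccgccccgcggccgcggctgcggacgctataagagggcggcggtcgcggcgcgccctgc

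The Wnt11 window held 1 such match, which begins 50 bases before the start. The Fzd1 window held 2, at 242 and 37 bases, and the Fzd4 and Wnt9a windows held none. Of the members that passed and are not printed, Wnt5b had 3 windows, 1 of them with a Tcf/Lef match, and Wnt7a had 1 window without a match. Wnt5a, Sfrp1 and Sfrp4 had no window, so a link with direction was not tested. Across the family, 25 of the 37 members matched RefSeq windows, 28 windows in all, and 7 of these (25.0%) held a Tcf/Lef match, against 27.6% of 32851 windows of the same length over all genes. The letters ACGTG on either strand, a form of the core bound by hypoxia-inducible factors, were in 4 of the 28 (14.3%), against 16.6%. Other forms of that core, such as GCGTG, were not searched. ACGTG was in the Wnt11 window, 61 bases before the start, and in the Wnt9a window, where CACGTG at 228 bases reads as a match on both strands. The shares in the family were thus close to those of all windows, and a match of letters is not a site of binding.

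Among the ligands, Wnt11 had the largest fall. Control kidneys had 252, 343 and 234 normalized counts and knockout kidneys 68.6, 26.9 and 38.8. Every knockout library was thus far below every Control library, with means of 276 ± 58.3 and 44.8 ± 21.5 (SD, n = 3 each). This was a 6.13-fold lower level (log2 fold change -2.62, SE 0.38, DESeq2 adjusted p 5.03e-10, edgeR adjusted p 0.0128). Leaving out each library in turn gave log2 fold changes from -3.06 to -2.36.

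Wnt5a, the main ligand of the beta-catenin-independent branch, was at 1142, 1057 and 1057 normalized counts in Control and at 549.9, 395 and 493 in knockout kidneys. The Control libraries lay close together, and all knockout libraries were below them. Wnt5a fell 2.26-fold (log2 fold change -1.18, SE 0.19, DESeq2 adjusted p 3.66e-08, edgeR adjusted p 0.0108). Its close relative Wnt5b was at 276, 302 and 402 in Control and 146, 62.7 and 82.3 in knockout kidneys. The groups again did not overlap, and Wnt5b fell 3.35-fold (log2 fold change -1.74, SE 0.36, DESeq2 adjusted p 3.93e-05, edgeR adjusted p 0.0335). The annotation places an exon of Gm2670 on the opposite strand over Wnt5a and one of Gm8398 over Wnt11. Whether the counting used strand is not given in the sources used here, so reads of such partners cannot be told apart.

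2 ligands rose. Wnt9a, known from joint and skeletal tissue, was at 67.6, 56.4 and 47.4 normalized counts in Control and 85.5, 133 and 146 in knockout kidneys. The groups did not overlap, although knockout replicate 1 lay close to Control replicate 1. The level was 2.12-fold higher (log2 fold change 1.08, SE 0.34, DESeq2 adjusted p 0.0137). The call was lost in edgeR (adjusted p 0.0834), and in DESeq2 without Control replicate 2, Control replicate 3, knockout replicate 2 or knockout replicate 3 (adjusted p 0.0754 to 0.151).

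Wnt7a, a ligand of epithelia such as the female reproductive tract, had 4, 1 and 0 reads in Control and 44, 4 and 22 in knockout libraries. It passed the minimum of 60 reads through the knockout alone, with 70 reads against 5, and knockout replicate 2 had no more reads than Control replicate 1. The depth-adjusted ratio of the summed reads was 16 (exact 95% binomial interval 6.52 to 50.7, which covers counting error only). DESeq2 called it higher (log2 fold change 3.99, SE 1.18, adjusted p 0.00868), edgeR's filter on low counts left it untested, and the call was lost without Control replicate 2 (adjusted p 0.0643), knockout replicate 1 (0.117) or knockout replicate 3 (0.0537).

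**Figure D2:**
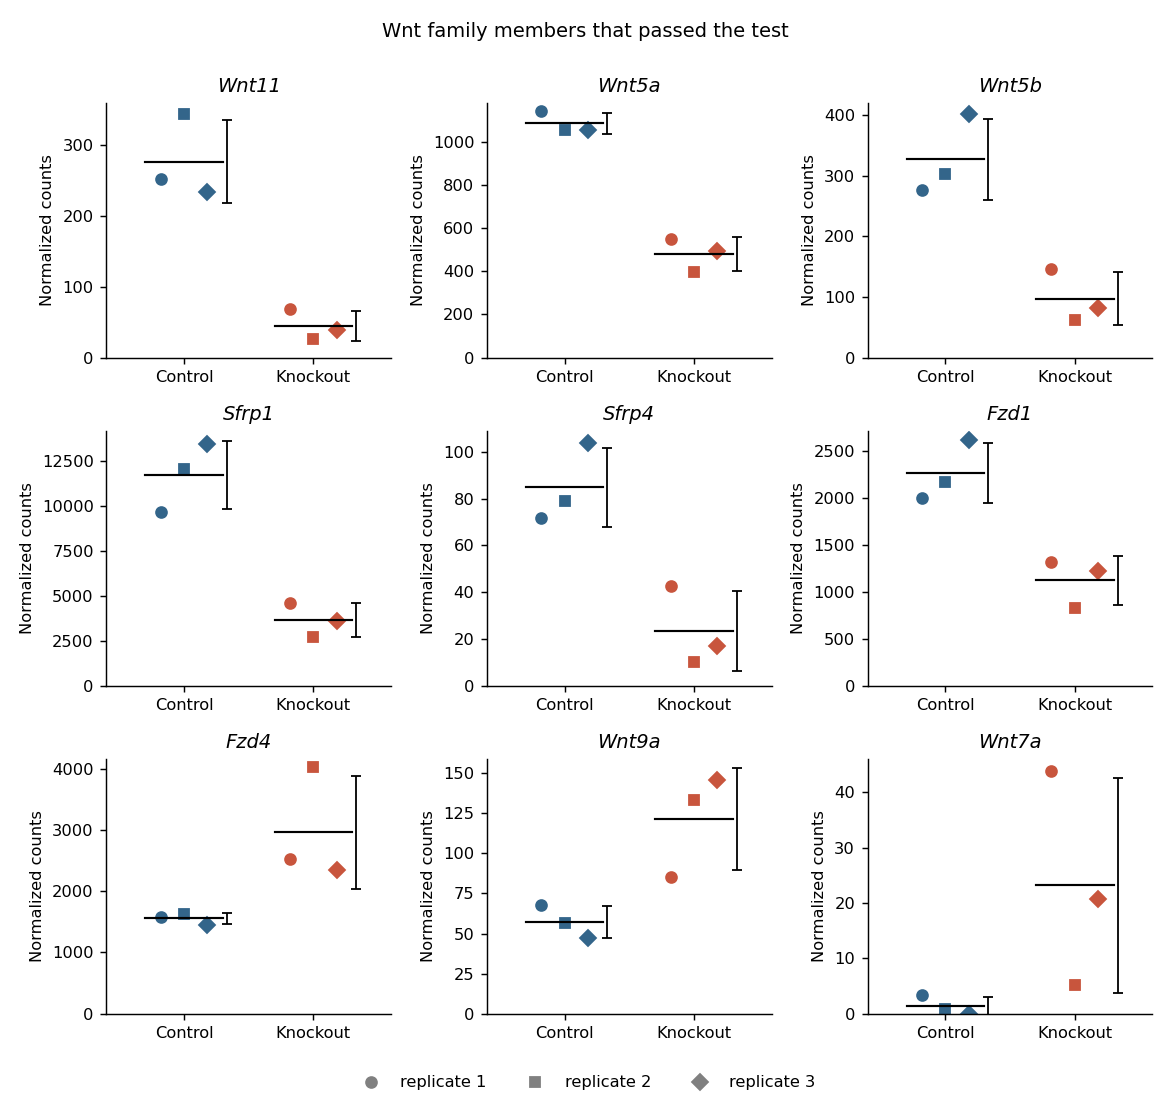
Normalized counts (y axis, from 0, own scale per panel) of the 9 members that passed, by group, with points for libraries, shapes for replicate numbers, lines for the means and bars for the SD beside them. The 6 members in the upper rows are lower in every knockout library than in every Control library. In the bottom row Fzd4, Wnt9a and Wnt7a are higher in every knockout library, with knockout replicate 2 apart at 4026 for Fzd4 and knockout replicate 1 at 43.8 for Wnt7a.

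Wnt9b, Wnt4 and Wnt7b, which act in nephron induction and the medulla, varied widely between libraries of a group, and none of these 3 passed with all 6. Wnt9b was at 762, 641 and 383 normalized counts in Control and 439, 60.1 and 114 in knockout kidneys. Knockout replicate 1 lay within the Control range and the other two knockout libraries far below it. The log2 fold change of -1.54 (SE 0.62) did not pass (DESeq2 adjusted p 0.0709), and it was -2.77 (adjusted p 9.31e-10) without knockout replicate 1. That library was singled out after the values were seen. Wnt9b did not pass without any other single library, at -1.78 to -1.11 (adjusted p 0.0598 to 0.282).

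Wnt4 was at 793, 735 and 1061 in Control and 1123, 419.6 and 487 in knockout kidneys. Here knockout replicate 1 was the highest of all 6 libraries. With all libraries the log2 fold change of Wnt4 was -0.35 (adjusted p 0.6), and without knockout replicate 1 it was -0.93 (adjusted p 0.00334). Without any other single library it was -0.46 to -0.10 and did not pass (adjusted p 0.629 to 0.928). Wnt7b was at 791, 873 and 361 in Control and 664, 380.0 and 414 in knockout kidneys, where Control replicate 3 was the lowest of all 6 (log2 fold change -0.47, adjusted p 0.438). An exon of AU022754 lies over Wnt7b on the opposite strand.

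Wnt2b, which is made by kidney stroma, was at 116, 42.7 and 125 in Control and 251, 128 and 199.6 in knockout kidneys. Its groups did not overlap, by a narrow margin between Control replicate 3 and knockout replicate 2, and the log2 fold change of 1.03 (SE 0.45) did not pass (adjusted p 0.108). The remaining ligands that were tested, Wnt2, Wnt6, Wnt10a and Wnt16, had log2 fold changes between -0.44 and 0.30 and overlapping groups.

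**Figure D3:**
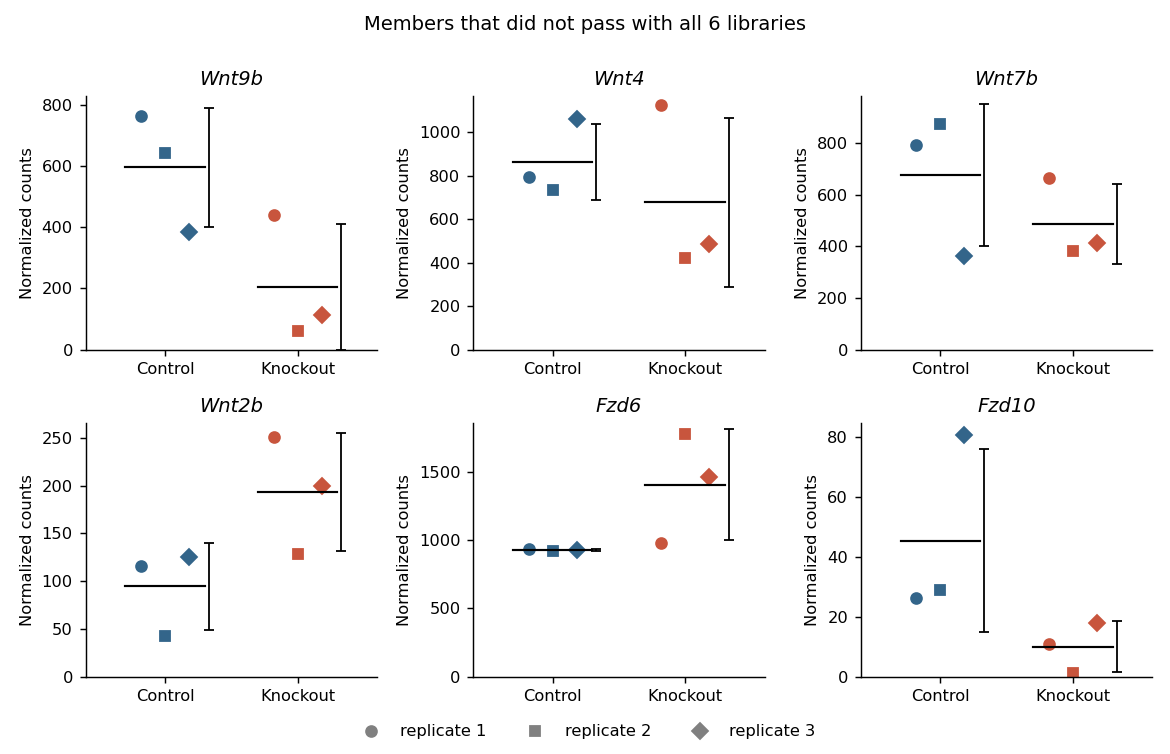
Normalized counts (y axis, from 0, own scale per panel) of 6 members that did not pass with all 6 libraries, by group, with points for libraries, shapes for replicate numbers, lines for means and bars for the SD. Knockout replicate 1 (circles) is the highest knockout library for Wnt9b, Wnt4, Wnt7b and Wnt2b and the lowest for Fzd6, and Control replicate 3 (diamond) carries the Control mean of Fzd10.

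Among the receptors, Fzd1 fell and Fzd4 rose. Fzd1 was at 2000.3, 2164 and 2616 normalized counts in Control and 1313, 825 and 1223 in knockout kidneys, so that the highest knockout library was well below the lowest Control library. It fell 2.02-fold (log2 fold change -1.01, SE 0.24, DESeq2 adjusted p 0.000487, edgeR adjusted p 0.035). Fzd4, which also binds the ligand Norrin in blood vessels, was at 1581, 1631 and 1453 in Control and 2526, 4026 and 2345 in knockout kidneys. All knockout libraries were above the narrow Control range. The rise was 1.91-fold (log2 fold change 0.93, SE 0.25, DESeq2 adjusted p 0.00305), passed without each library in turn, and just missed the threshold in edgeR (adjusted p 0.0501) and without Control replicate 1 and knockout replicate 3 together (0.0669).

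Fzd5 and Fzd6 also lay higher in every knockout library without passing. Fzd6, a receptor with a role in planar cell polarity, was at 933, 919 and 925 in Control and 976, 1779.7 and 1466 in knockout kidneys (log2 fold change 0.60, SE 0.25, adjusted p 0.0855), and passed without knockout replicate 1 (adjusted p 0.000306). Fzd6 did not pass without any other single library (adjusted p 0.158 to 0.316). For Fzd5 the log2 fold change was 0.70 (adjusted p 0.0809).

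Fzd2 and Fzd10 lay lower in every knockout library. Fzd2 had a log2 fold change of -0.80 (adjusted p 0.0703), and Fzd10, with only 26.4, 29.1 and 80.7 normalized counts in Control and 10.9, 1.28 and 18 in knockout kidneys, one of -2.14 (SE 0.81, adjusted p 0.0524). Both passed without knockout replicate 3 (adjusted p 0.0185 and 0.0324). Neither passed without any other single library (adjusted p 0.107 to 0.225 for Fzd2 and 0.0869 to 0.35 for Fzd10). Without Control replicate 3 the log2 fold change of Fzd10 was -1.44. Fzd3, Fzd7 and Fzd8 overlapped between groups, with log2 fold changes of 0.09, -0.28 and -0.39.

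Of the 4 Sfrp inhibitors 2 fell (50%, against 7.18% of all genes), and of the 3 Dkk inhibitors tested 0 passed (against 14.9% of all genes). Groups of 4 and 3 genes are too small for these shares to set them apart. Sfrp1 was at 9684, 12057 and 13459 normalized counts in Control and 4606, 2723 and 3633 in knockout kidneys. Each knockout library was under the lowest Control library by a wide margin, and the mean fell from 11733 ± 1908 to 3654 ± 942, or 3.21-fold (log2 fold change -1.68, SE 0.25, DESeq2 adjusted p 1.54e-09, edgeR adjusted p 0.0123). Sfrp4 was at 71.7, 79.1 and 104 in Control and 42.8, 10.2 and 17 in knockout kidneys (log2 fold change -1.85, SE 0.54, DESeq2 adjusted p 0.0069). The groups did not overlap, but this call was lost in edgeR (adjusted p 0.0811) and without Control replicate 2, Control replicate 3 or knockout replicate 3 (0.0527 to 0.0713).

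Sfrp2 was at 533, 575 and 525 in Control and 470.4, 159.9 and 479.6 in knockout kidneys. All knockout libraries were below Control, with knockout replicate 2 far below the others, and the log2 fold change of -0.56 (SE 0.39) did not pass (adjusted p 0.37). Gm16790 overlaps Sfrp2 on the opposite strand. Sfrp5, at 7.68 to 14 normalized counts, had a log2 fold change of -0.35.

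The Dkk genes gave no call. Dkk3, a divergent member of the family, ran from 1069 to 2009 normalized counts in Control and 1355 to 1787 in knockout kidneys (log2 fold change 0.07, 95% interval -0.48 to 0.61). Dkk2 was at 460.1, 451 and 658 in Control and 902, 375 and 524 in knockout kidneys (log2 fold change 0.20, 95% interval -0.49 to 0.89), and Dkk1 ran from 9.69 to 30.7 over all libraries (log2 fold change 0.71, SE 0.66). The groups overlapped for all 3, none reached an unadjusted p under 0.05 in DESeq2 or edgeR, and the intervals still allow changes of moderate size.

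Counted over the family, 15 of the 29 members had groups that did not overlap, 9 lower and 6 higher in the knockout (51.7%, against 33.7% of all genes tested and 34.6% of those with 60 or more reads), or 9 lower and 5 higher of 28 without Wnt7a. Of all genes, 16.9% did so in each direction. Of the 9 members that passed, 5 (Wnt11, Wnt5a, Wnt5b, Sfrp1 and Fzd1) also passed in edgeR and without Control replicate 1 and knockout replicate 3 together, and these 5 and Fzd4 passed without each library in turn. Fzd4, Sfrp4, Wnt9a and Wnt7a did not pass without that pair. Libraries of the same group differed in level across the family. Knockout replicate 2 was the lowest knockout library for 21 of 29 members, knockout replicate 1 the highest for 16, and Control replicate 3 the highest Control library for 14. The same was not counted over all genes, so it does not set the family apart.

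Comparison between genes needs a level per length, here TPM, the reads per base of a gene's annotated exons scaled to the same total in every library. In Control kidneys Sfrp1 led the family at 411 ± 76.4 TPM (SD, n = 3), apart from Fzd1 at 79.1 ± 13.9, Dkk3 at 67 ± 24.8 and Fzd4 at 64.4 ± 1.46, whose ranges overlapped in that order. Sfrp2 (38.6), Fzd6 (34.7) and Fzd7 (34.2) followed. The leading ligand was Wnt4 at 31.6 ± 7.61 TPM, then Wnt7b (23.1 ± 8.84), Wnt5a (21.2 ± 1.17), Wnt9b (20 ± 6.13) and Wnt5b (19.1 ± 4.55), and within this run each gene's Control range overlapped that of the next member of the family in the order. Wnt11 was at 11.6 ± 2.03 TPM, with a range apart from its neighbours Fzd8 above and Fzd5 below.

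**Figure D4:**
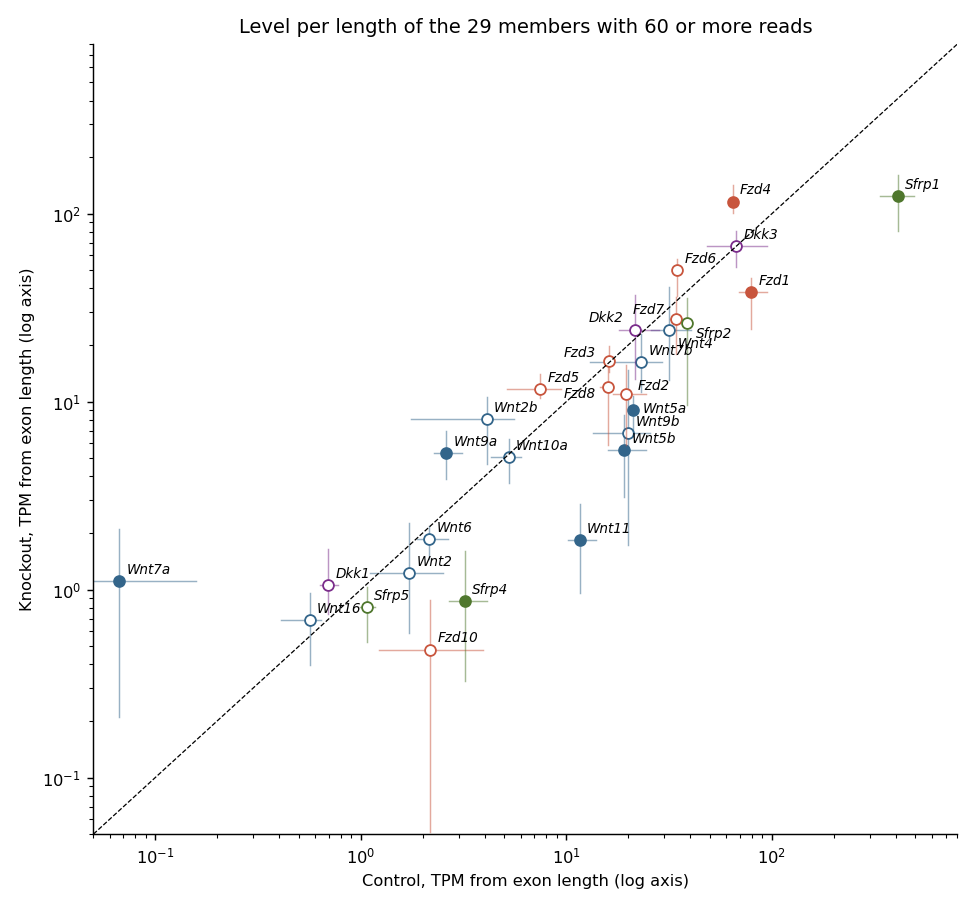
Mean TPM in Control (x axis) against knockout kidneys (y axis), both on log axes, for the 29 members with 60 or more reads, with thin lines from the lowest to the highest library (cut at the axis for Wnt7a, with a Control library at 0, and for Fzd10), colours by family (blue Wnt, orange Fzd, green Sfrp, purple Dkk) and filled points for members that passed. Points below the dashed line of equal level are lower in the knockout, with Sfrp1 at 411 against 124 TPM and Wnt11 at 11.6 against 1.84, and Fzd4 lies above it at 64.4 against 116.

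Summed per family, the inhibitors of the Sfrp group came to 378, 449.6 and 533 TPM in Control and 196, 91.2 and 169 in knockout libraries, and Sfrp1 made up 89.1% to 91.7% of that sum in Control and 78.1% to 88.5% in knockout kidneys. The summed ligands came to 149, 141 and 141 TPM in Control and 129, 55.4 and 79 in knockout libraries. Both sums were lower in each knockout library than in any Control library, though the ligand sum of knockout replicate 1 (129) lay near the lowest Control value (141). These sums follow from the members given above and are no separate evidence.

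The summed receptors overlapped between the groups, at 262, 262 and 299 TPM in Control and 266, 279 and 305 in knockout libraries, while their make-up moved. Fzd4 made up 24.9%, 24.8% and 21% of the receptor sum in Control and 39.1%, 50.8% and 33.1% in knockout libraries. Fzd1 made up 26.5%, 27.8% and 31.8% in Control and 17.1%, 8.77% and 14.5% in knockout libraries. Fzd4 and Fzd1 thus had similar shares in Control kidneys, and Fzd4 had the larger share in every knockout kidney. These shares follow from the changes of Fzd4 and Fzd1 given above and are no separate evidence. The Dkk sum overlapped, from 68.1 to 124 TPM in Control and 67.1 to 119 in knockout libraries. The divergent member Dkk3 made up 68.1% to 78% of it.

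The 8 members under 60 reads were near the limit of detection. Fzd9 (54 reads over the 6 libraries), Wnt8b (43) and Wnt10b (32) came closest, Wnt8a had 3 reads, Wnt3 had 2, Wnt1 and Dkk4 had 1 each, and Wnt3a had 0. A count of 0 allows up to 3 reads, or 0.131 to 0.181 CPM (reads scaled to the library total) at these depths. Just above the minimum stood Sfrp5 (73 reads), Wnt7a (75) and Dkk1 (85). Wnt genes that lie next to each other in the genome differed widely in reads. On chromosome 11, Wnt9b (2593 reads) and Wnt3 (2) are separated by 24.3 kb, and Wnt9a (532) and Wnt3a (0) by 16.2 kb. On chromosome 1 Wnt6 (167) and Wnt10a (521) are separated by 6.2 kb, and on chromosome 15 Wnt10b (32) and Wnt1 (1) by 11.7 kb.

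The rest of the pathway was read from 5 lists of genes by role, against the 14.9% of all genes that passed (7.18% lower and 7.74% higher). Among 17 coreceptors and membrane regulators, 3 fell and none rose (17.6%, near the share of all genes), with a median log2 fold change of -0.21. At an unadjusted p under 0.05, DESeq2 and edgeR each counted 4 lower and 1 higher. Gpc3, a glypican that binds Wnts at the cell surface, fell (log2 fold change -1.06, adjusted p 4.04e-05), as did Lgr6, an R-spondin receptor, from 28.9, 36.4 and 29.1 to 5.97, 3.84 and 2.84 normalized counts (adjusted p 0.000216). Ror2, a receptor of Wnt5a, fell as well (log2 fold change -0.96, adjusted p 0.0107), a call lost in edgeR (adjusted p 0.0759). Its normalized counts were 223, 244 and 352 in Control and 139, 111 and 168 in knockout kidneys, without overlap. Reck, a membrane protein of Wnt7 signalling, had a log2 fold change of -0.88 and did not pass (adjusted p 0.0526).

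Of 14 other secreted modulators and proteins of ligand export, 12 were tested and 0 passed in DESeq2 or edgeR. Each tool counted 1 lower and 0 higher at an unadjusted p under 0.05. The median log2 fold change was 0.03. The smallest adjusted p belonged to Cthrc1 (log2 fold change -1.48, adjusted p 0.0921), and Rspo1, Rspo3 and Frzb, an inhibitor related to the Sfrp proteins, followed at adjusted p from 0.253 to 0.434. Rspo2 and Rspo4 had too few reads to be tested.

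In the list of 22 cytoplasmic and nuclear signal transducers, 2 fell and none rose in DESeq2 (9.09%, under the share of all genes), and 0 passed in edgeR, where 2 were higher and 4 lower at an unadjusted p under 0.05 (3 and 4 in DESeq2). Both that fell, Lef1 and Tcf7, are among the 4 Tcf and Lef transcription factors of the list. Lef1 was at 83.3, 76.4 and 197 normalized counts in Control and 45.7, 23 and 19.9 in knockout kidneys (means 119 ± 67.7 and 29.5 ± 14.1, SD, n = 3 each, DESeq2 adjusted p 0.00233, edgeR adjusted p 0.0631). Tcf7 was at 209, 175 and 333 in Control and 129, 83.2 and 121 in knockout kidneys (log2 fold change -1.10, adjusted p 0.0125, edgeR adjusted p 0.0845). The groups did not overlap for either, and Control replicate 3 was the highest library for both. The other two factors, Tcf7l1 (log2 fold change -0.13, adjusted p 0.684) and Tcf7l2 (-0.39, 0.0565), did not pass, nor did the kinase Csnk1e (0.59, 0.0855). The median was -0.07.

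Of 20 feedback and target genes of beta-catenin, 6 fell and 1 rose (30% and 5%), with a median of -0.59. edgeR called Apcdd1 lower and Mmp7 higher, and the other 5 calls were lost there, with adjusted p of 0.0581 for Ccnd1, 0.114 for Axin2, 0.125 for Nkd1 and the values given above for Lef1 and Tcf7. The genes that fell were the membrane-bound inhibitor Apcdd1 (log2 fold change -2.04, adjusted p 2.55e-05), the intracellular feedback inhibitors Nkd1 (-1.05, 0.0389) and Axin2 (-0.71, 0.0398), the cell cycle gene Ccnd1 (-1.74, 0.000633), and Lef1 and Tcf7 again. Axin2, a widely used readout of the branch, was at 341, 289 and 349 normalized counts in Control and 237, 145 and 215 in knockout kidneys, without overlap. Mmp7, which encodes a matrix-degrading protease, rose from 3 Control reads to 62 knockout reads (depth-adjusted ratio 23.6, exact 95% binomial interval 7.7 to 117, adjusted p 0.000818). The count of this list was 4 without Control replicate 1 or knockout replicate 3, and 1 without both.

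Of 15 planar cell polarity genes, 1 passed (6.67%), with a median of -0.08. Prickle3 rose (log2 fold change 0.62, adjusted p 0.0275), and edgeR called 0 of the list, with 1 higher and 1 lower at an unadjusted p under 0.05 (1 and 3 in DESeq2). Celsr2 (-0.85), Invs (-0.66) and Dchs1 (-0.72) did not pass (adjusted p 0.0579 to 0.176). The Prickle3 call was thus 1 gene of a list of which no other passed, and the count was 0 without Control replicate 1, Control replicate 2, knockout replicate 2 or knockout replicate 3.

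**Figure D5:**
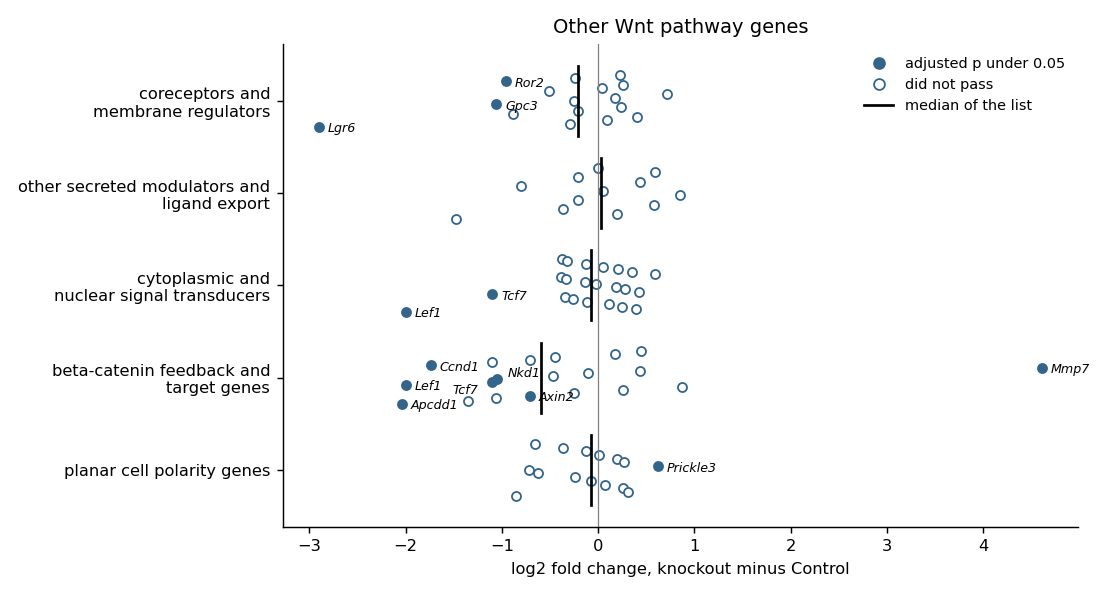
Log2 fold change (knockout minus Control, x axis) of each tested gene of 5 pathway lists (rows), with filled, named points for genes that passed an adjusted p of 0.05 and a vertical bar for the median of the list. The medians of 4 lists lie between -0.21 and 0.03, and that of the beta-catenin feedback and target genes lies at -0.59. Lef1 and Tcf7 stand on 2 lists, and Mmp7, far to the right, rests on 3 Control reads.

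Marker genes of kidney cell types moved along with these results, counted here by DESeq2 with edgeR's counts beside them, where 14.9% of all genes passed in DESeq2 and 6.02% in edgeR. Markers of the thick ascending limb fell in 6 of 6 genes (4 in edgeR, summed normalized counts from 50189.8 to 100053 in Control and from 14877 to 26594 in knockout kidneys), and those of the distal convoluted tubule in 5 of 5 (5 in edgeR, 23190.2 to 39485 against 6217 to 10051). Of 8 proximal tubule markers, 2 fell and 1 rose (1 and 1 in edgeR, 54361 to 121987 against 43785 to 73881). Of the proliferation genes, 5 of 7 fell (3 in edgeR, 7380.3 to 9138 against 2729 to 4648). Nephron progenitor markers, of which Six2 was near 0 and Meox1 and Crym made up most of the sum (Control means 499 and 510.3), came to 1013 to 1367 summed counts in Control and 572 to 839 in knockout kidneys. Of these 7, Eya1 was higher (log2 fold change 2.11, DESeq2 adjusted p 0.000418) and Meox1 lower (-0.90, adjusted p 0.00827, lost in edgeR at 0.0642).

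For the cells that make many of the members, the markers were mixed. Stromal markers fell in 3 of 11 genes (73052 to 150165 in Control, the highest in Control replicate 3, and 39083 to 71249.6 in knockout kidneys). edgeR called 0 of the 11, with 3 lower at an unadjusted p under 0.05 against 5 in DESeq2. Smooth muscle markers fell in 1 of 5 (8031 to 13963 against 6975 to 10819), with 0 called by edgeR and 1 lower at an unadjusted p under 0.05 in both tools. Collecting duct markers, of the lineage that makes Wnt7b and Wnt9b, rose in 4 of 11 and fell in none (12475 to 23304 against 39678 to 68280.5), a sum carried by Aqp2, the 1 gene of the list that edgeR called. Intercalated cell markers rose in 1 and fell in 3 of 6 (0 and 2 in edgeR, 9568 to 13642 against 9906 to 10877).

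Endothelial markers rose in 1 of 8 (16901 to 27579 against 18922 to 22682), a range within that of Control, beside the rise of Fzd4. Macrophage markers rose in 5 of 9 (4 in edgeR, 2779 to 4722 against 6079.7 to 9581), podocyte markers in 1 of 7 (1 in edgeR, 11109.6 to 16919.8 against 15834 to 19135) and urothelial markers in 1 of 7 (928 to 1771 against 1578 to 2204). edgeR called 0 endothelial and 0 urothelial markers, with 1 of each higher at an unadjusted p under 0.05 in both tools. The part of these cell types in the changes of Wnt, Fzd, Sfrp and Dkk genes was not tested.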

How the data were processed

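Raw read counts per gene were deposited for 6 kidney RNA libraries. The authors isolated RNA with TRIzol, selected poly-A RNA and sequenced TruSeq libraries, and the submitters' processing notes name CASAVA 1.8.2, Trimmomatic, TopHat2 2.0.11 and HTSeq with the mm9 build. Nothing was normalized in the deposited counts. The strand setting is not given in the sources used here. Columns were matched to samples by label, and 0 columns were left out.

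Counts of all 24422 genes were fitted in R 4.3.3 with DESeq2 1.42.0, the study's tool (Wald test, median-ratio size factors, unshrunken fold changes, Benjamini-Hochberg adjustment). Independent filtering tested genes with a mean normalized count of at least 3.51. Genes with an adjusted p under 0.05 were taken as changed. edgeR 4.0.16 (quasi-likelihood, TMM), other scalings and filters, a block for the replicate number and fits without single libraries were alternatives. The code was tested on simulated data. TPM used GENCODE exon lengths of the same build, known for 20791 genes (94.8% of counts). Members and lists were chosen with earlier results of these data known. Every member is accounted for, and from each pathway list the genes with the 4 smallest adjusted p are named, plus those that passed. Exact 95% binomial intervals cover counting error only. No 2 libraries of a group agreed within counting noise. With 3 libraries a group, an exact permutation test cannot reach 0.05 (smallest two-sided p 0.1), so group overlap is a description.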

Additional observations from a re-analysis of the deposited data

How the results depend on the processing

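With edgeR the counts that passed were 0 members higher, 0 transducers, 2 feedback and target genes and 0 planar cell polarity genes, and over all genes 493 higher and 428 lower. Total-count scaling, which moved the median log2 fold change of all genes by -0.104, gave 2 planar cell polarity genes. Without Control replicate 1 and knockout replicate 3, a setting chosen after seeing the data, 0 members were higher and 1 coreceptor, 0 transducers, 1 target gene and 0 polarity genes passed, with 421 genes higher and 260 lower in all. Leaving out each library in turn gave 1 to 3 members higher (1 without Control replicate 2 or knockout replicate 3), 5 to 8 lower (8 without knockout replicate 1), 2 to 4 coreceptors, 1 to 4 transducers (4 without knockout replicate 1, and 1 without Control replicate 1, knockout replicate 2 or knockout replicate 3), 4 to 9 target genes, 0 to 3 polarity genes (3 without knockout replicate 1), and over all genes 664 to 1531 higher and 575 to 1674 lower.

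Same-numbered samples did not deviate together (correlations -0.0378, 0.0548 and 0.0899). No pairing by number was thus seen, though such correlations cannot exclude it. With the replicate number as a block, 3 members were higher and 9 lower, as Wnt9b, Fzd2, Fzd10 (adjusted p 1.78e-05, 0.0206 and 0.0235) and Wnt2b (0.0197) passed and Wnt9a did not (0.0849).

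Reversals were limited to members near 0. Without single libraries, Dkk2 ran from -0.21 (without knockout replicate 1) to 0.45. Dkk3 was at -0.04 with total-count scaling, at -0.12 to -0.01 without Control replicate 1, Control replicate 2 or knockout replicate 1 (up to 0.36 without others), and at -0.08 without the pair of libraries above. Fzd3 was at -0.02 with total-count scaling and -0.01 without that pair. Wnt10a was at -0.01 with TMM, -0.10 with total counts, -0.00 with the block, and -0.13 to -0.09 without Control replicate 3, knockout replicate 1 or knockout replicate 2 (0.24 without knockout replicate 3). Wnt6 was at 0.01 without Control replicate 3 or that pair, and at 0.08 without knockout replicate 3 (down to -0.34 without others). Of the values of single members under alternatives, 361 kept direction and call, 18 lost the call, 9 gained it and 17 reversed. The causes were not tested. Depth limits the members under 60 reads and Wnt7a, and the 3 libraries a group limit the rest.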
